A study of Mus musculus with 12 samples.

Results

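The promoters of 55 cytosolic ribosomal protein genes were followed through ATAC-seq peak lists of mouse hepatocytes. The 55 genes (33 of the large subunit, Rpl and Rplp, and 22 of the small subunit, Rps and Rpsa) were a fixed list of gene names, and a peak belonged to a gene when it lay within 1 kb of either end of the gene's span in the mm10 genome. Peaks of the 12 libraries were joined where they overlapped. Joining gave 138538 regions present in at least 3 of the 12 lists, and 82 of them lay near an end of a member gene. All 55 genes had at least 1 such region.

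ATAC-seq marks open chromatin by letting a transposase insert sequencing adapters into accessible DNA. Each library came from 1 mouse, and there were 3 mice in each of 4 groups. All mice carried floxed alleles of Fbxl5, whose F-box protein marks the iron regulator IRP2 for degradation when iron is plentiful. The floxed controls (FBXL5F/F) had no Cre, and the Fbxl5-deleted mice (Alb-Cre/FBXL5F/F) also carried Cre under the albumin promoter, which is active in hepatocytes. Both genotypes were kept on standard diet or, for 2 weeks, on a diet containing 0.1% DDC, a porphyrinogenic compound that causes cholestasis. Hepatocytes were isolated by collagenase perfusion, which can leave other liver cells in the preparation, and the peak lists do not show whether the floxed alleles had recombined. The 12 promoter regions of hepatocyte markers ranked at a median percentile of 65.7, and all 12 hepatocyte markers had such a region. Of the markers of other cells, 3 of 8 macrophage (median percentile 18.1), 1 of 7 sinusoidal endothelial (26.5), 4 of 7 stellate (79.7), 3 of 7 cholangiocyte (56.7) and 1 of 6 lymphocyte markers (74.2) had a promoter region, so the stellate and lymphocyte promoters ranked above the hepatocyte median. Each library was made from many cells, so fewer cells with an open site and less signal per cell cannot be told apart.

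Ribosomal proteins assemble with ribosomal RNA into the small subunit, which reads the messenger RNA, and the large subunit, which joins amino acids. Their genes are transcribed in nearly every cell, hepatocytes included, and many of their messages start with a run of pyrimidines, the 5′ terminal oligopyrimidine (TOP) tract, through which mTOR signalling controls their translation. Their promoters are commonly described as lacking a TATA box and as binding ETS family factors such as GABPA, as well as YY1 and SP1.

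Sequences were taken from RefSeq (GRCm38.p6, the assembly of mm10), from 250 bases before to 50 bases after the listed start, and 46 of the 55 members matched an entry. The members Rpl3, Rpl7, Rpl8, Rpl17, Rpl30, Rpl32, Rplp1, Rps14 and Rps20 had no entry. The 6 promoters below carry the features that the member promoters shared or that mark the ends of their range. They are Rps6 and Rpl27a, the most accessible members with an ETS motif, a TCTCGCGA motif and a pyrimidine run together, Rpl7a, which held the longest run, Rplp0 and Rpl18, the most and the least accessible members with a listed start, and Rps25, the member without a peak at its start. Capitals mark every match to the 8 motifs searched and a run of at least 8 pyrimidines at the start.
Rps6 (chr4:86857318-86857617, minus strand): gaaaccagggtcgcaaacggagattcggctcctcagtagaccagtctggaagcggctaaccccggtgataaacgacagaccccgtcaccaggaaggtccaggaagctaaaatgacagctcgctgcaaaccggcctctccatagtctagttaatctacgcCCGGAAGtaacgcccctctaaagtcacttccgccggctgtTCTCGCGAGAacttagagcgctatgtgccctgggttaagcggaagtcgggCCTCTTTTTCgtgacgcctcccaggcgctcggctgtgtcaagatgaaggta
Rpl27a (chr7:109518945-109519244, plus strand): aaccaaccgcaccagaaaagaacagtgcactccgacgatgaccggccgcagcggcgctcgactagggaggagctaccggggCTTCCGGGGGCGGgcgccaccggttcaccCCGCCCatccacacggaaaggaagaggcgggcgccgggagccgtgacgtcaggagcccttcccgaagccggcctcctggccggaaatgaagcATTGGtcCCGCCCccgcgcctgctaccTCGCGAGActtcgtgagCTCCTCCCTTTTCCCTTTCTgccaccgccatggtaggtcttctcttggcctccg
Rpl7a (chr2:26910557-26910856, plus strand): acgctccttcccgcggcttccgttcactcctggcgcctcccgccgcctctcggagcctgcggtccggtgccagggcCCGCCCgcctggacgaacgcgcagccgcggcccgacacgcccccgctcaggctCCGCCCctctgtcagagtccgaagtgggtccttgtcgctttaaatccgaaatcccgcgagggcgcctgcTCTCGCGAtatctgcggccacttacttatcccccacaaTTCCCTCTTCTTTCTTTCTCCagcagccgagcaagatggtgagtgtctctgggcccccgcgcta
Rplp0 (chr5:115559217-115559516, plus strand): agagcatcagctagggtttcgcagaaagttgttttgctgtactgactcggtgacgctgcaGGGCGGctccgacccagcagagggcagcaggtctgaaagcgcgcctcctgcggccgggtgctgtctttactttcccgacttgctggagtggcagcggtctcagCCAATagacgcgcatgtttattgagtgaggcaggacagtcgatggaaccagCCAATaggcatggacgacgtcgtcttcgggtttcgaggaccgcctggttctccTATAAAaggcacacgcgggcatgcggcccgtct
Rpl18 (chr7:45717821-45718120, plus strand): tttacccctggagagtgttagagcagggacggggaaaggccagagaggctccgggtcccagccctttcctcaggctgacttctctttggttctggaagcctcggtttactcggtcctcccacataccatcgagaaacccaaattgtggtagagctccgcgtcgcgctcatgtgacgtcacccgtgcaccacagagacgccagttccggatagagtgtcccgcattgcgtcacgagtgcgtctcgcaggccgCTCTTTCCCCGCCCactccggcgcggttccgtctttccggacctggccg
Rps25 (chr9:44407464-44407763, plus strand): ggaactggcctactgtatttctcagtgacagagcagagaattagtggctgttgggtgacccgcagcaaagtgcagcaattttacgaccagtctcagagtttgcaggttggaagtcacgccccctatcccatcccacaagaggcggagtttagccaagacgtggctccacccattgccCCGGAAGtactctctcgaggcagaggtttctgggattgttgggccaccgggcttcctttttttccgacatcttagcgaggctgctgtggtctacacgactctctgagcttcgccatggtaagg

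Each motif was searched on both strands, and a promoter counted once however many matches it held. Matches may overlap each other and the pyrimidine run, as in Rpl18, where the reverse complement of GGGCGG overlaps the end of the run. A match describes the letters and shows neither a bound factor nor a cause, and the absence of these letters says nothing about a factor.

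The pyrimidine run was more frequent among members than among other promoters. A run of at least 8 C or T letters touching the 5 bases on either side of the start was present in 19 of 46 member promoters (41.3%), against 9.27% of all 17492 promoters, 9.33% of the 10666 with a tested region and 12.5% of the 24 housekeeping promoters. In Rpl7a, a large-subunit protein, the run was 21 letters long. In Rpl27a, also of the large subunit, it was 20 letters long, and in Rps6, the small-subunit protein phosphorylated by S6 kinase, it was 10. The longest run at the start had a median of 6 letters in members and 3 in all promoters.

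The TCTCGCGA motif, recognised by BANP and close to the site described for ZBTB33, was in 9 of 46 member promoters (19.6%) and in 1.51% of all promoters. Of the promoters with a tested region 2.23% held it, and none of the 24 housekeeping promoters did. Its matches lay at a median of 27 bases upstream of the start (position -27, where -1 is the base just before the start). Rps6 held 2 overlapping matches, at -51 and -49, as its longer stretch TCTCGCGAGA reads alike on both strands. In Rpl7a the match began at -52 and in Rpl27a at -21.

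The ETS motif CCGGAAG was in 17 member promoters (37.0%), in 11.89% of all promoters, in 17.19% of those with a tested region and in 8.3% of the housekeeping promoters. Its median position was -73. Rps25 held it at -73 and Rps6 at -91, and both carried it on the strand of the gene. At least 1 of the 3 features (pyrimidine run, TCTCGCGA, CCGGAAG) was found in 31 members (67.4%) against 26.51% of promoters with a tested region, and at least 2 in 11 members (23.9%) against 2.17%. All 3 were found in 3 members (6.5%) against 0.08%.

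The other motifs differed less. GGGCGG, the SP and KLF motif, was in 60.9% of member promoters and 65.01% of promoters with a tested region. CCAAT, the NF-Y motif, was in 34.8% and 38.72%. AAGATGGC, the YY1 motif, was in 3 members (6.5%) and 4.37%, and CACGTG, the E-box bound by MYC, in 10.9% and 10.29%. TATAAA was in 3 members (6.5%) and 7.08%, against 33.3% of the housekeeping promoters. GCGCATGC, the NRF1 motif, was in 1 member (2.2%) and 5.13%. Member promoters had a median of 58.7% G and C and 21 CpG dinucleotides in 300 bases, against 61.3% and 21 in promoters with a tested region.

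**Figure D1:**
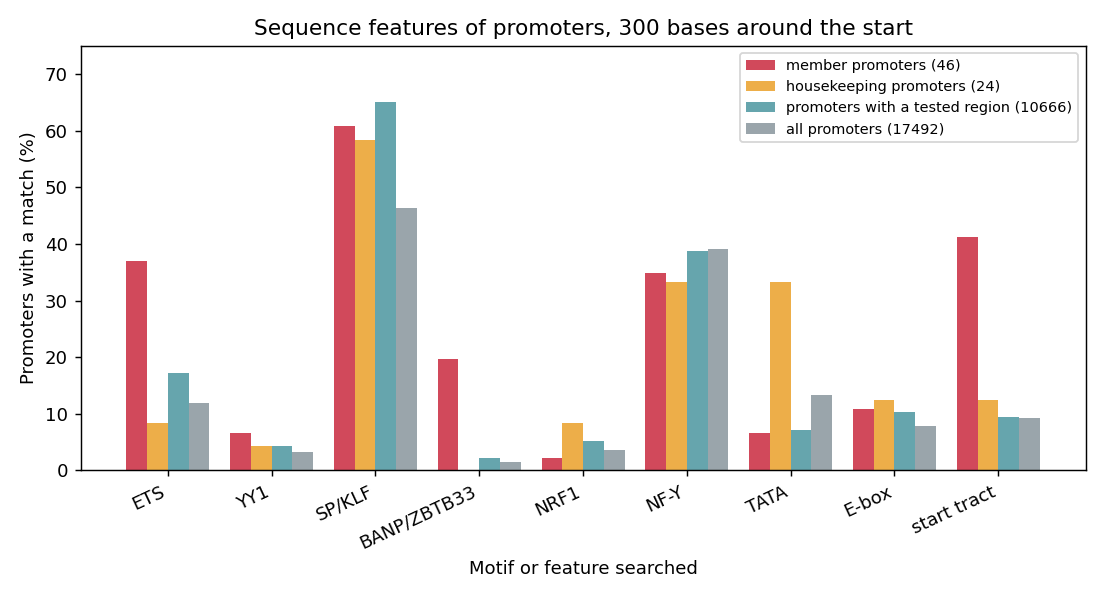
Share of promoters (y axis, percent, from 0) that held each motif, or a pyrimidine run at the start ("start tract"), in 300 bases, for members, housekeeping genes, promoters with a tested region and all promoters. Member bars stand above the others for ETS (37.0%), BANP/ZBTB33 (19.6%) and the start tract (41.3%), and near the bar of promoters with a tested region for SP/KLF, NF-Y and E-box.

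The accessibility of a region is given here as a percentile, its rank by the authors' fold enrichment among the strongest 137034 peaks of its own library, the number in the shortest list. A region absent from a list has percentile 0. The promoter region of a member was the tested region over its RefSeq start, or the strongest region near an end for the 9 members without a listed start. By this definition 54 of the 55 members had a promoter region, 45 over a listed start. All 54 were present in all 12 lists, against 88.27% of the 10450 promoter regions of protein-coding genes and 44.52% of all tested regions. The 10450 were all regions over a listed start, while members had 1 region each, the strongest where several qualified. This choice favours the members here and in the percentile comparisons with all promoter regions below. Of the housekeeping promoter regions, chosen as for members, 27 of 29 were in all 12 lists.

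The member promoters ranked high and covered a wide range. Their mean percentile over the 12 libraries had a median of 86.2 (interquartile range 77.2 to 91.5), against 83.5 for all promoter regions and 38.6 for all tested regions. In all, 42 of 54 (77.78%) stood at percentile 75 or above, a level reached by 67.06% of all promoter regions. Housekeeping promoters had a median of 80.1 and hepatocyte marker promoters one of 65.7. The large-subunit genes (median 87.1 over 33) and the small-subunit genes (85.8 over 21) covered overlapping ranges.

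At percentile 90 or above stood 18 members, namely Rpl30, Rplp0, Rpl27, Rpl34, Rpl15, Rpl22, Rps3, Rps13, Rps6, Rpl11, Rpl37, Rpl14, Rps27, Rps14, Rps20, Rpl13, Rpl28 and Rpl27a. Between 75 and 90 stood 24, from Rps19 through Rps7, Rpl6, Rpsa, Rplp1, Rpl26, Rpl5, Rplp2, Rps15, Rps21, Rps2, Rps23, Rpl24, Rpl38, Rpl12, Rpl7a, Rps9, Rps10, Rps18, Rps12, Rps15a, Rpl7 and Rpl23 down to Rpl3. The 10 members between 50 and 75 were Rpl32, Rpl13a, Rpl10a, Rpl4, Rpl35, Rpl8, Rpl19, Rps28, Rps24 and Rps16. Under 50 were Rpl17 and Rpl18. Neighbours in this order mostly could not be told apart, since in 50 of the 53 neighbouring pairs the gap did not exceed the larger SD over libraries. The exceptions were Rpl30 above Rplp0, Rpl34 above Rpl15, and the gap of 22.6 points between Rps16 and Rpl17.

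**Figure D2:**
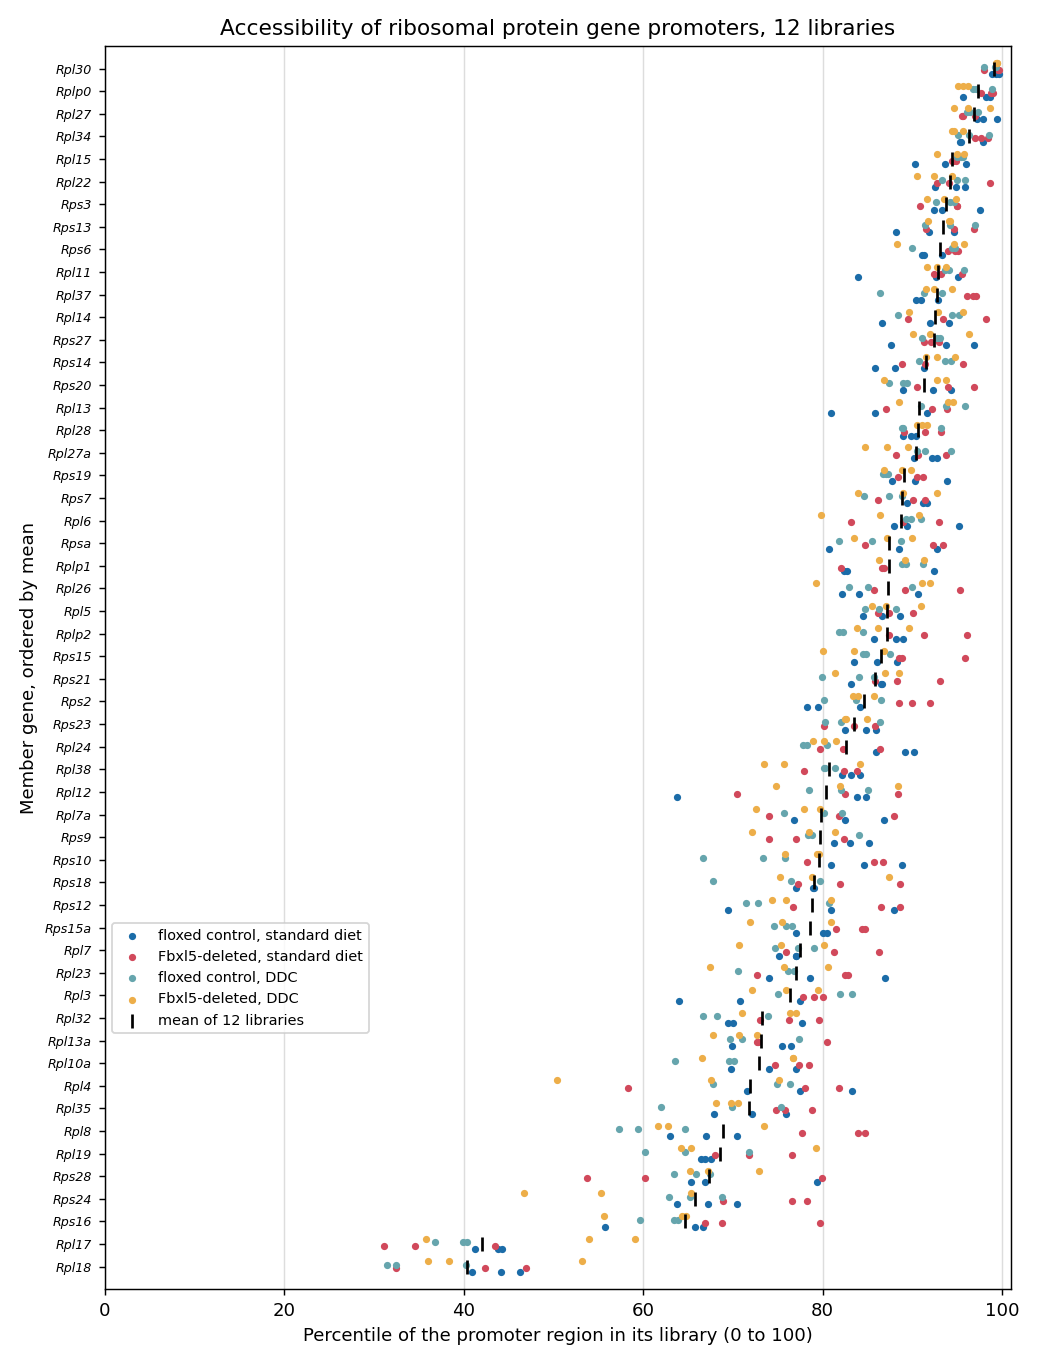
Percentile of each member's promoter region (x axis) in each of the 12 libraries, coloured by group, with the mean as a black bar and the 54 members ordered by mean (y axis). Rpl30 to Rpl15 sit close together above 90 in every library, and the points widen down the order. The means of Rpl17 and Rpl18 stand below the rest, although single libraries overlap those of Rps24, Rps16, Rps28, Rpl8 and Rpl4.

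Rpl30, a large-subunit protein, had the most accessible promoter of the set, on chromosome 15 at 34442898 to 34443909. Its percentiles were 98.9, 99.6 and 99.3 in floxed controls and 99.5, 99.7 and 98.0 in Fbxl5-deleted mice on the standard diet, and 99.3, 98.0 and 99.2 in controls and 99.3, 99.4 and 99.5 in Fbxl5-deleted mice on DDC. The 4 groups overlapped and the lowest library was at 98.0. Rplp0, the stalk protein often used as a reference gene in expression assays, followed at 97.3 ± 1.4 (SD, n = 12 libraries), on chromosome 5 at 115559154 to 115560173. Its values were 95.7, 98.2 and 98.6 in controls and 97.7, 98.9 and 98.8 in deleted mice on the standard diet, and 98.8, 97.1 and 96.7 in controls and 95.7, 96.2 and 95.1 in deleted mice on DDC. The deleted mice on DDC lay below the controls on DDC and the deleted mice on the standard diet, and overlapped the controls on the standard diet. Rpl27 (96.8 ± 1.39), Rpl34 (96.3 ± 1.5) and Rpl15 (94.4 ± 1.58), all of the large subunit, completed the 5 highest.

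At the other end, Rpl18, a large-subunit protein, stood at 40.4 ± 6.66 (SD, n = 12 libraries) over its listed start, on chromosome 7 at 45717865 to 45718574. Its percentiles were 44.1, 40.9 and 46.3 in controls and 42.4, 32.4 and 46.9 in deleted mice on the standard diet, and 31.5, 40.3 and 32.4 in controls and 36.0, 53.1 and 38.4 in deleted mice on DDC. The controls on DDC lay below the controls on the standard diet, and the deleted groups overlapped each other and both of these. This start lies inside the span of the gene, more than 1 kb from both ends, and the region also covers a start of Sphk2, a sphingosine kinase gene. A region at the lower-coordinate end of the Rpl18 span ranked higher, at 53.3. Rpl17, also of the large subunit and at 42.0 ± 7.94, had a single region, 254 bp wide on average, beyond the higher-coordinate end of its span. In controls it stood at 41.2, 43.9 and 44.3 on the standard diet and 39.9, 36.8 and 40.4 on DDC, and in deleted mice at 43.5, 31.1 and 34.6 and at 53.9, 59.1 and 35.8. The table used gives no strand for Rpl17, so whether that end is its start was not determined. The remaining low members were Rps16 (64.6 ± 6.33), Rps24 (65.8 ± 8.53) and Rps28 (67.3 ± 7.35), all of the small subunit.

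Rps25, which helps the small subunit start translation at internal entry sites, was the exception. None of the 12 full lists held a peak over its listed start, and 1 list held a peak within 1 kb of the start. Its only tested region, on chromosome 9 at 44408612 to 44409061, was present in 3 lists with a mean percentile of 6.76. The promoter sequence itself held the ETS motif shown above and 54.3% G and C. The 9 members without a listed start and 4 others whose listed start lies more than 1 kb from both ends (Rpl18, Rpl19, Rpl22 and Rps2) carry the same doubt about which region is the promoter. Taking the strongest region near either end instead gave a region for all 55 members.

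Members with roles beside translation lay across the range. Rpl5 (87.2 ± 2.03) and Rpl11 (92.9 ± 3.08), which bind MDM2 and restrain it, stood in the upper bands, as did Rps6 (93.1 ± 2.37), Rps3 (93.8 ± 1.81), which also takes part in DNA repair, and Rps19 (89.0 ± 2.16), the gene most often mutated in Diamond-Blackfan anaemia. Rpsa, the laminin receptor precursor, stood at 87.4 ± 4.25. Rpl13a, a silencer of inflammatory messages in the GAIT complex, was lower at 73.1 ± 3.7 (SD, n = 12 libraries for each).

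The order of the members was similar in all libraries. Spearman's rho between any 2 libraries over the 54 promoters lay between 0.782 and 0.948, given as a description of peaks that share their libraries. Over libraries the SD of a promoter had a median of 3.94 points (0.57 to 9.64), against an SD of 12.2 between the members' means. The spread was smaller at the top, where members at 75 or above had a median SD of 3.42 and the others 6.49. Rpl4, a large-subunit protein, varied most. It stood at 50.3 in deleted DDC library 3, 58.3 in deleted standard-diet library 1 and 83.3 in control standard-diet library 2. In the same libraries a region directly beside it, from 64172442 to 64173215 on chromosome 9, stood at 83.3, 58.6 and 63.2. How the signal was divided between these regions was not tested.

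Peaks sat close to the start. In the 45 members with a region over a listed start, the summit had a median position 27 bp upstream, and in 36 of them (80%) it lay within 150 bp of the start, against 87.5% of housekeeping genes and 69.46% of all protein-coding genes with such a region. The summit was upstream in 31 of the 45. Rplp2, the partner of Rplp1 in the ribosomal stalk, had the farthest upstream summit, at position -333, and Rpl38 the farthest downstream, at 517.5 bp. The joined regions reached a median of 482 bp upstream and 517 bp downstream. A second protein-coding start lay inside 6 of them, shared by Rpl18 with Sphk2, Rps28 with Ndufa7, Rps18 with Vps52, Rpl7a with Med22, Rpl12 with Lrsam1 and Rps27 with Rab13, and at these the accessibility cannot be assigned to 1 gene. The genes themselves often host small nucleolar RNAs, with 45 snoRNA genes inside the spans of 22 members.

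**Figure D3:**
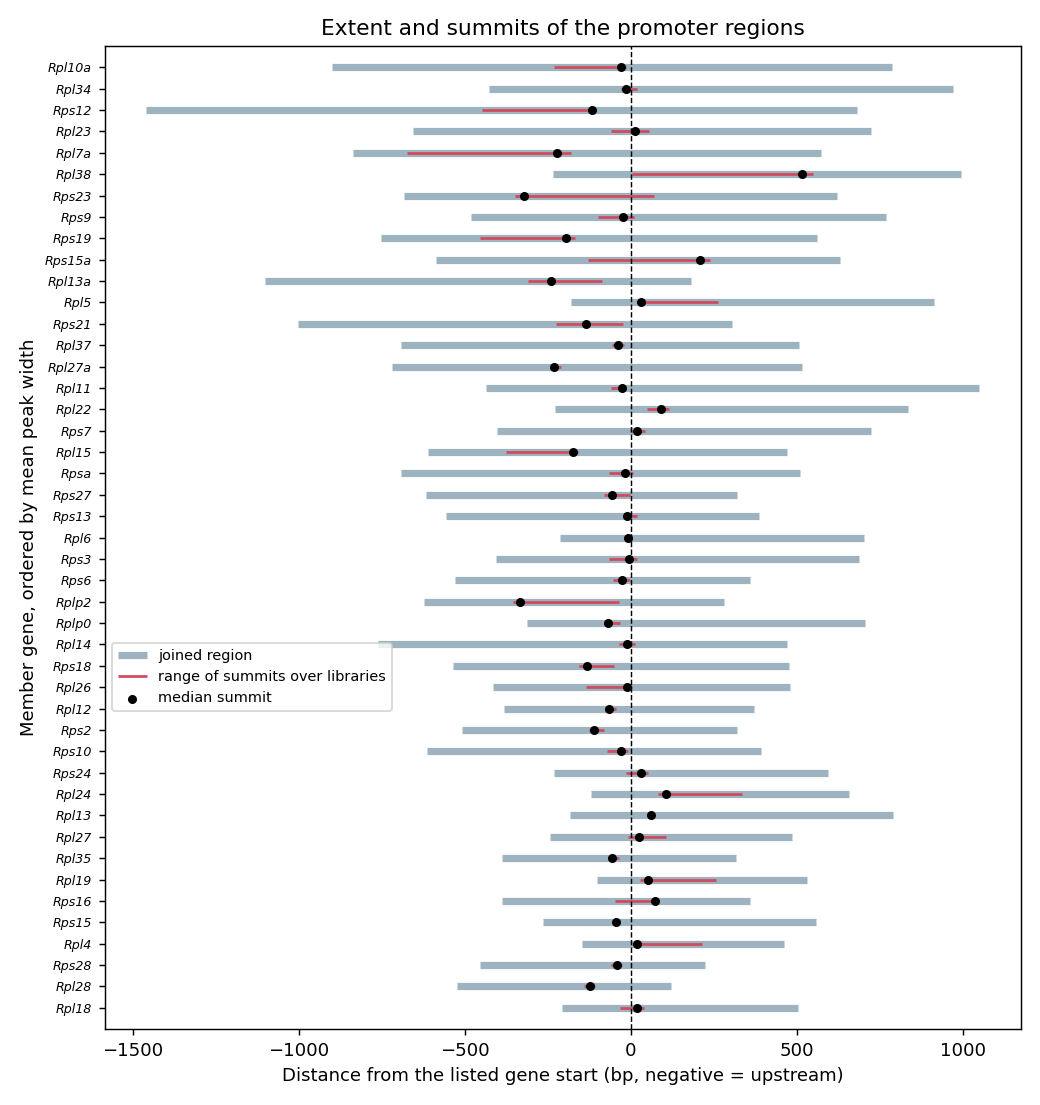
Extent of the joined promoter region (grey bars) and range of the summits over libraries (red) with their median (black points), in bp from the listed start (x axis, negative upstream), for the 45 members with a listed start inside the region, ordered by mean peak width (y axis). The summits gather at the start, with Rplp2 and Rps23 displaced upstream and Rpl38 downstream.

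The other 32 member regions, at far ends or beside the promoters, had a median percentile of 20.8, and 11 of them were in all 12 lists. Some ranked high, as at the far ends of Rpl4 (91.2, against 71.9 at its promoter region), Rpl13a (77.6 against 73.1) and Rps19 (79.1 against 89.0). Members are also known to have many processed pseudogenes that copy their exons but not their promoters. The sources used here do not say how reads that fit several places were treated, so exonic signal near an end is less certain than signal at the promoter itself.

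Libraries of all groups gave similar member ranks. Lists held 137034 to 202912 peaks, except those of Fbxl5-deleted standard-diet mice 1 and 3 with 262080 and 260622, and replicates of a group correlated at 0.872 to 0.92 over the tested regions. The median percentile of the 54 member promoters was 85.9, 84.7 and 85.9 in controls and 88.9, 86.2 and 87.7 in deleted mice on the standard diet. On DDC it was 83.5, 84.8 and 84.5 in controls and 84.3, 82.0 and 86.5 in deleted mice. The 3 deleted standard-diet libraries were the highest but for deleted DDC library 3, which passed 1 of them. The median of all promoters was also highest in deleted standard-diet mice, at 87.1, 84.3 and 85.8, against 83.1, 81.6 and 83.3 in controls on DDC, and the part of list length in this was not tested.

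**Figure D4:**
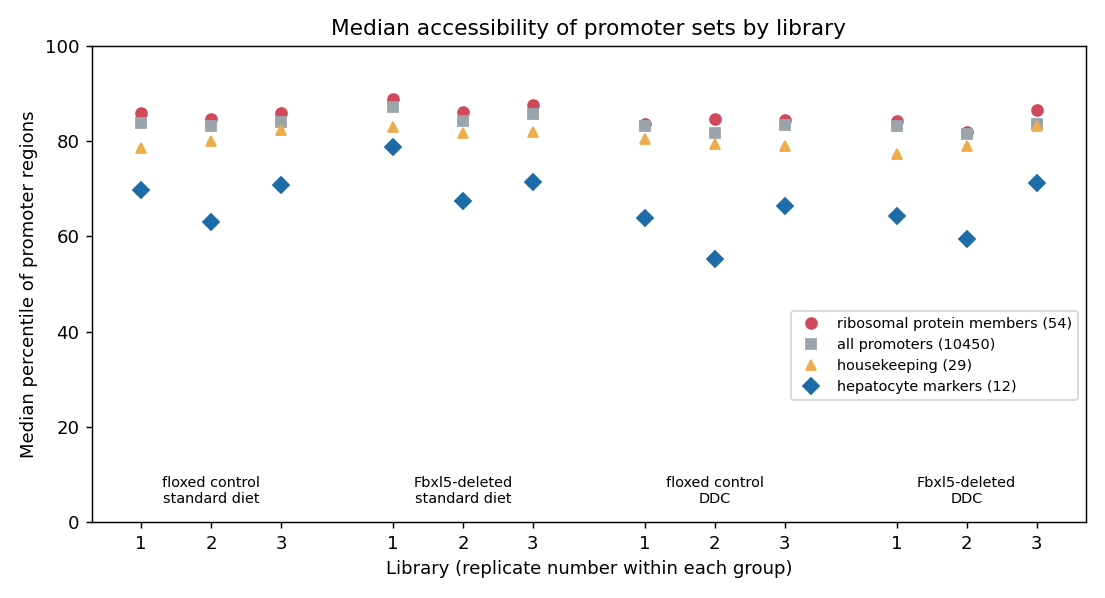
Median percentile (y axis, 0 to 100) of the promoter regions of members, all genes, housekeeping genes and hepatocyte markers in each library (x axis, replicates within the 4 groups). Member medians stay between 82.0 and 88.9, close to those of all promoters and above the hepatocyte markers in every library.

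Differences between groups were tested with limma over all 138538 regions, on ranks mapped to the mean log2 fold-enrichment scale of the 12 lists, with Benjamini-Hochberg adjustment over all regions and a call at an adjusted p under 0.05. DDC against the standard diet in floxed controls changed 7.03% of all tested regions, 1.6% of all promoter regions and 0 of the 82 member regions. Among the 20153 gene-end regions of all protein-coding genes, 320 were called higher and 187 lower. With so few calls near genes, 0 of 82 was not read as particular to the members. An unadjusted limma p under 0.05 was reached by 4 of the 82 (4.88%) against 21.27% of all regions and 9.01% of all promoters. The differences at the 54 promoters had a median of -0.06 and ran from -0.53 to 0.38, beside medians of -0.04 over all promoters, -0.07 over housekeeping promoters and -0.01 over all tested regions. Without control standard-diet library 1 the members' median was -0.09. All 54 intervals (95%) lay within 1 log2 unit of zero.

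Among the 54 promoters, Rps10, a small-subunit protein, showed the largest difference in this comparison. Its percentiles were 88.8, 84.6 and 80.9 in controls on the standard diet and 66.7, 73.4 and 75.8 on DDC, and the groups did not overlap. The share of all regions where 3 libraries separate from 3 was not computed. Here and below, such a separation at members picked for their largest differences is a description only. The log2 difference of Rps10 was -0.53 ± 0.17 (SE), with a limma adjusted p of 0.069. It was 0.19 at 50% reciprocal overlap, a setting in which peaks covering less than 50% of their joined region counted as absent. With the deposited log2 fold enrichment it was -0.58, which passed the threshold (limma adjusted p of 0.0425). Rpl24 of the large subunit went from 90.2, 89.2 and 86.0 to 78.2, 77.8 and 80.5, also without overlap, at -0.43 ± 0.15 and an adjusted p of 0.0956 in limma. Rpl13, another large-subunit protein, had 85.8, 80.9 and 91.6 on the standard diet and 93.8, 95.9 and 91.0 on DDC, which overlapped, at 0.38 ± 0.15 and an adjusted p of 0.149 in limma. Under the ranks used here none of the 3 passed the threshold, while Rpl13 passed it with all deposited peaks (0.57, limma adjusted p of 0.0246) and when centred on housekeeping gene ends (0.58, limma adjusted p of 0.0359). Among all 82 member regions the largest difference was at the far end of Rps16, from 28353313 to 28353892 on chromosome 7, singled out after its values were seen. It stood at 56.7, 66.3 and 74.6 on the standard diet and 38.1, 26.0 and 35.2 on DDC without overlap, at -0.89 ± 0.29 and an adjusted p of 0.0733 in limma. It passed the threshold with only the compared groups in the fit (limma adjusted p of 0.048) and with the deposited log2 fold enrichment (0.0368).

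In the same libraries, the median percentiles of macrophage and of cholangiocyte marker promoters did not overlap between the diets in controls, while those of stellate, endothelial and lymphocyte markers did. The 3 macrophage marker promoters had a median percentile of 0 to 11.7 in controls on the standard diet and 35.6 to 55.7 on DDC, and of 0 to 26.7 and 1.70 to 40.8 in deleted mice, while 5 of the 8 macrophage markers had no promoter region. The 3 cholangiocyte marker promoters stood at 61.1 to 71.4 in controls on the standard diet and 28.0 to 47.1 on DDC, and at 61.1 to 76.9 and 43.0 to 55.2 in deleted mice. In controls the log2 difference was nevertheless positive at 2 of these 3 promoters (median 0.02, 1 called) and at 6 of the 8 cholangiocyte marker regions (median 0.12). Hepatocyte markers stood at 63.1 to 70.8 and 55.3 to 66.4 in controls, and at 67.4 to 78.8 and 59.4 to 71.2 in deleted mice. The part of these cells in the values of Rps10, Rpl24, Rpl13 and the other members was not tested.

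In the Fbxl5-deleted mice, DDC against the standard diet changed 3.16% of all tested regions and 0.995% of all promoter regions, and again 0 of the 82 member regions by limma. Of the 20153 gene-end regions of all protein-coding genes, 145 were called higher and 105 lower. Here 8 of the 82 (9.76%) had an unadjusted p under 0.05, against 17.41% of all regions and 14.1% of all promoters. The 54 promoters had a median difference of -0.13 and ran from -0.65 to 0.33, beside -0.11 over all promoters, -0.14 over housekeeping promoters and 0.01 over all regions, and 52 of the 54 intervals lay within 1 log2 unit of zero. Rps24 and Rpl8 were the exceptions, with intervals reaching -1.10 and -1.06. The members' median was -0.05 without both deleted standard-diet libraries that stand apart, and all regions called then fell from 4378 to 1183.

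Rps24, a small-subunit protein mutated in Diamond-Blackfan anaemia, had percentiles of 76.6, 78.3 and 68.9 in deleted mice on the standard diet and 55.3, 65.3 and 46.7 on DDC. The groups did not overlap, and the log2 difference was -0.65 ± 0.22 with a limma adjusted p of 0.113. It was 0.24 at 50% reciprocal overlap. A second Rps24 region beside the promoter region, from 24491277 to 24491533 on chromosome 14 and in 11 lists, was at -0.13 ± 0.29. Rpl8, a large-subunit protein at the peptidyl transferase centre, went from 84.8, 83.9 and 77.7 to 62.7, 61.7 and 73.4. These did not overlap either, at -0.64 ± 0.20 and an adjusted p of 0.0981 in limma, and it passed the threshold with the deposited log2 fold enrichment (-0.75, limma adjusted p of 0.0441). Rps15, a small-subunit protein, went from 95.9, 88.9 and 88.5 to 86.8, 83.5 and 80.0 without overlap, at -0.38 ± 0.15 and an adjusted p of 0.198 in limma, and at -0.24 without deleted standard-diet library 1.

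Few regions were called between genotypes. Fbxl5-deleted against floxed mice on the standard diet changed 0.000722% of all tested regions, which is 1 region, and 0 of the 82 member regions by limma. An unadjusted limma p under 0.05 was reached by 3 of the 82 (3.66%), against 8.05% of all regions and 6.23% of all promoters. The promoter differences had a median of 0.12 (range -0.26 to 0.61), beside 0.07 over all promoters and 0.10 over housekeeping promoters, and 53 of 54 intervals lay within 1 log2 unit of zero. This median rested in part on deleted standard-diet libraries 1 and 3, which stand apart, as it was 0.08 without either and 0.03 without both. Without deleted standard-diet library 2, 96 of all tested regions were called and still 0 member regions. Rpl8 was the exception here, at 70.5, 67.0 and 63.0 in controls against the deleted values above, without overlap. Its difference was 0.61 ± 0.20 (interval up to 1.03, limma adjusted p of 0.415). A second region at the same end of Rpl8, from 76904237 to 76904776 on chromosome 15 and in 11 lists, was at -0.21 ± 0.24. Rps2, a small-subunit protein at the entry of the messenger channel, went from 79.5, 78.2 and 84.1 to 91.9, 88.5 and 89.9 (0.44 ± 0.15, limma adjusted p of 0.419). Rpl37, a large-subunit protein, went from 90.4, 90.9 and 92.8 to 96.8, 96.1 and 97.1 (0.35 ± 0.12, limma adjusted p of 0.445). In both the groups did not overlap, and neither passed the threshold.

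On DDC the genotypes differed at 0% of all tested regions and 0 of 82 member regions by limma. None of the 82 had an unadjusted limma p under 0.05, against 5.93% of all regions and 3.43% of all promoters. With shares this low, the absence was not read as particular to the members. The median difference over the promoters was 0.01 (range -0.31 to 0.29), and 0.05 without deleted DDC library 2, and all 54 intervals lay within 1 log2 unit. The largest were Rps24 (-0.31 ± 0.22), Rpl4 (-0.30 ± 0.25) and Rpl17 (0.29 ± 0.24), each with overlapping groups and limma adjusted p-values of 0.971 or more. Single libraries moved them. Without deleted DDC library 3 they were -0.18, -0.06 and 0.46. Without deleted DDC library 1 Rpl4 was at -0.49, and without deleted DDC library 2 Rpl17 was at 0.16. The second Rps24 region was at 0.46 ± 0.29, and the region beside the Rpl4 promoter region at 0.06 ± 0.24.

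The difference of the diet effects between genotypes was called at 0% of all tested regions and 0 of 82 member regions by limma. Again none of the 82 had an unadjusted limma p under 0.05, against 5.86% of all regions and 3.13% of all promoters, and this was not read as particular to them. Its promoter values had a median of -0.08 (range -0.59 to 0.42), beside -0.07 over all promoters and -0.08 over housekeeping promoters. Leaving out single libraries moved the median between -0.14 (deleted DDC library 3) and -0.02 (deleted standard-diet library 1), through -0.03 without deleted DDC library 2 and -0.11 without deleted standard-diet library 2. The precision was lower, with a median interval half-width of 0.467 against 0.33 in the other comparisons, and 49 of 54 intervals lay within 1 log2 unit. Rps24 (-0.59 ± 0.31), Rpl3 (-0.50 ± 0.26) and Rpl17 (0.42 ± 0.34) were the largest. However, Rpl3 was at 0.83 with 50% reciprocal overlap and Rpl17 at -0.25 with all deposited peaks. The second Rps24 region was at 0.21 ± 0.41. Rpl3, which lines the entry to the peptidyl transferase centre, was at 77.5, 70.8 and 64.0 in controls on the standard diet and 81.9, 75.02 and 83.2 on DDC. In deleted mice it was at 79.0, 80.0 and 77.8 on the standard diet and 72.1, 79.5 and 75.9 on DDC, so the groups overlapped in controls and in deleted mice alike.

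**Figure D5:**
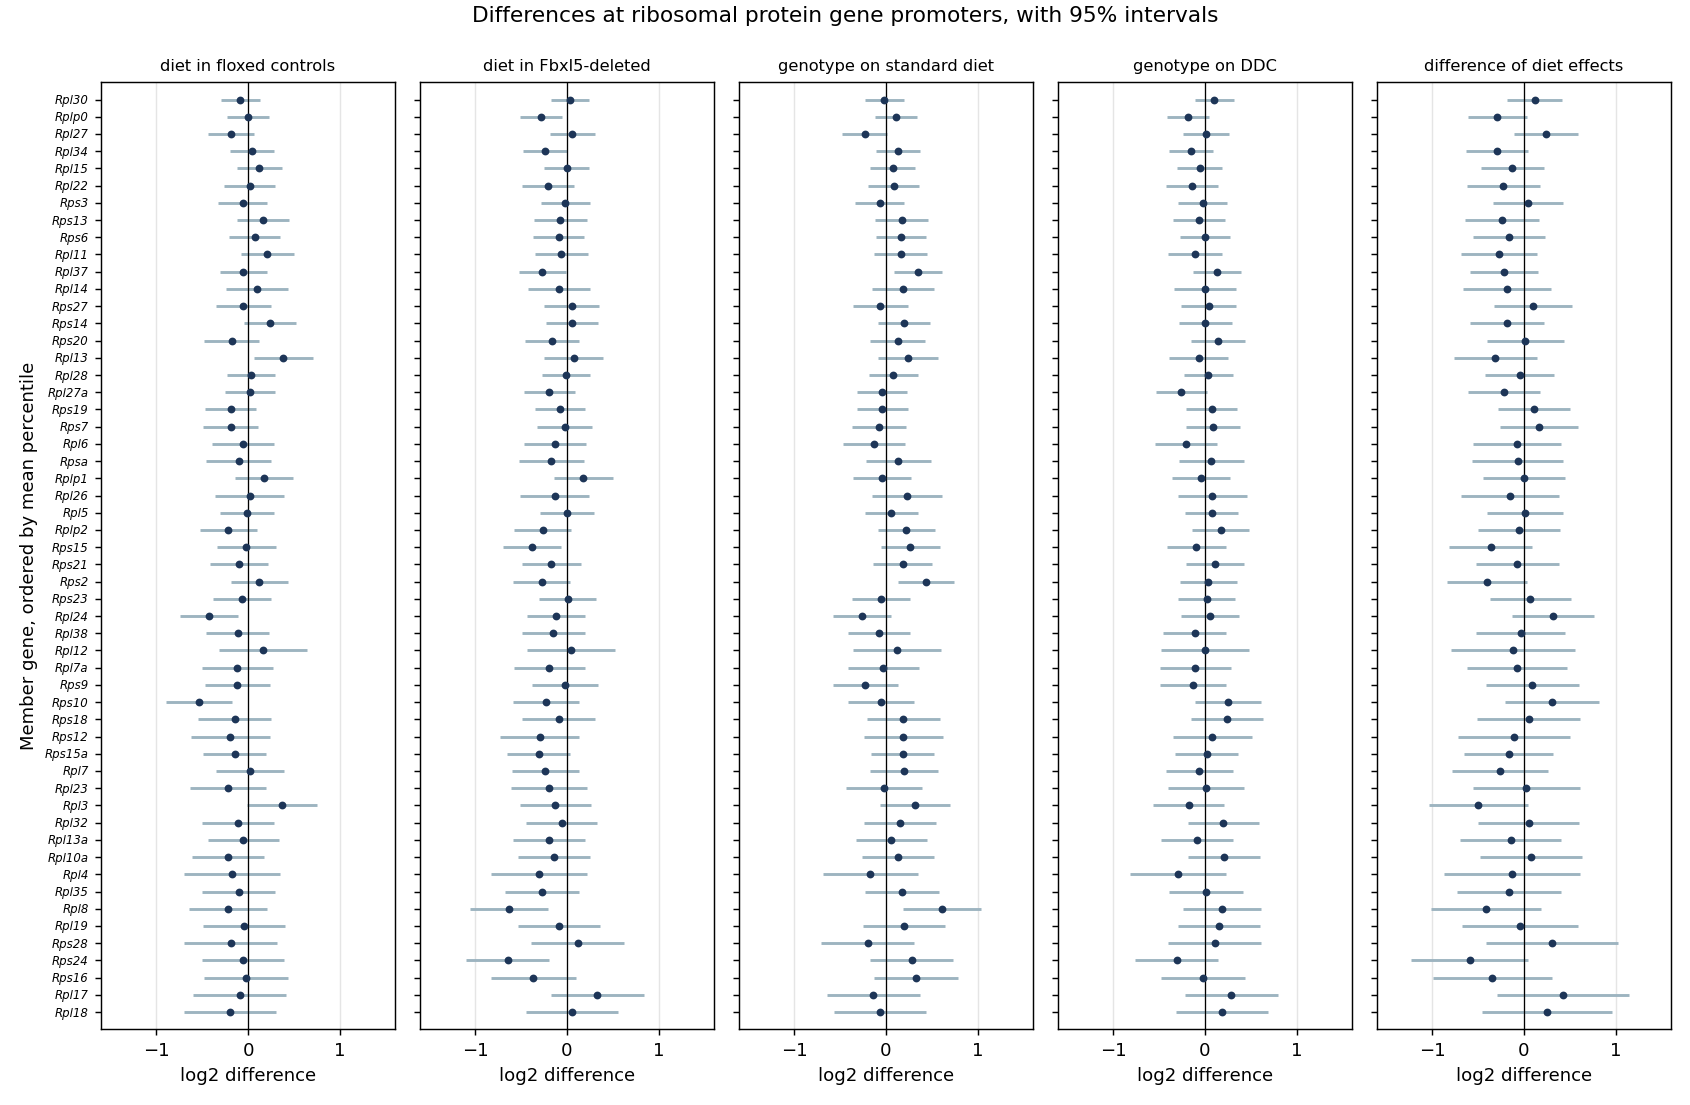
Log2 difference (x axis) with its 95% interval (bars) for each of the 54 member promoters (y axis, ordered by mean percentile) in the 5 comparisons. The points gather around zero in every panel, and the intervals widen toward the less accessible members at the bottom.

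No direction was read for the members as a set, because it followed the scaling. Over 6 ways of scaling the libraries the median difference of the promoters ran from -0.13 to 0.14 for diet in controls, from -0.28 to 0.25 for diet in deleted mice, from -0.08 to 0.34 for genotype on the standard diet and from -0.40 to 0.11 for the difference of diet effects. For genotype on DDC it stayed between -0.03 and 0.01. The median over all tested regions moved with it, for example to 0.39 for diet in deleted mice when libraries were centred on housekeeping gene ends, where the members' median was 0.25. Under that centring 16 of the 82 member regions were called higher on DDC in deleted mice. Only 9 of them were promoter regions, and the others included side regions present in as few as 3 lists. The centring also shifted the value given to absence in each library, and the part of this shift in the calls was not tested. With the deposited fold enrichment 4 were called lower (Rplp0, Rpl34, Rpl37 and Rpl8). Over all settings tried, between 1183 and 43318 of all tested regions were called in that comparison. These member counts were not read as particular to the members.

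Peak width, the second measure, varied from 254 bp (Rpl17) to 1746 bp (Rpl7) around a median of 808 bp, and 14 members were at least 1000 bp wide on average. Widths were tested with limma on the log2 scale over the 61671 regions present in all 12 lists, and 0 of the 54 member promoters were called in any of the 5 comparisons. The background was 0.182% for diet in controls, 0.073% for diet in deleted mice, 0.00162% for genotype on the standard diet, and 0% for genotype on DDC and for the difference of diet effects. The members' median log2 differences in width lay between -0.03 and 0.00, and the lowest adjusted p in limma was 0.0958, for Rpl13a in controls.

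When libraries of both strata were compared as 6 against 6, widths separated without overlap at 1 member by genotype and 1 by diet, and both were singled out after their values were seen. At Rps15 the peaks were 515, 325 and 404 bp wide in controls and 621, 529 and 693 bp in deleted mice on the standard diet. On DDC they were 332, 354 and 342 bp in controls and 783, 519 and 673 bp in deleted mice. All 6 deleted libraries were wider than all 6 control libraries. A separation of the genotypes without overlap, whichever was wider, held for 0.263% of the 61671 regions and for 1 of the 54 members. In accessibility such a separation held for 0.277% of regions and 0 members. The log2 width differences of Rps15 were 0.58 on the standard diet and 0.92 on DDC, with adjusted p-values of 0.559 and 0.738 in limma.

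At Rps19 the peaks were 1228, 1126 and 1118 bp wide in controls and 1237, 916 and 1211 bp in deleted mice on the standard diet, and narrower on DDC at 905, 905 and 903 bp in controls and 889, 905 and 907 bp in deleted mice. All 6 DDC libraries lay below all 6 standard-diet libraries. A separation by diet, whichever was wider, held for 1.97% of regions and 1 of 54 members, a count no higher than that background. In accessibility such a separation held for 6.13% of regions and 0 of 54 members. The limma adjusted p for Rps19 width was 0.205 in controls and 0.329 in deleted mice.

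Few regions were called among related genes, and calls were also few among all protein-coding gene ends. Of those 20153 regions, 320 were called higher and 187 lower on DDC in controls. The small counts below were not read as a trait of any list. Among ribosomal protein genes outside the list, 0 of 52 regions were called in any comparison by limma, and their promoters had a median percentile of 83.9. Translation factors and other TOP genes stood at 87.2 with 1 of 39 regions called, at Pabpc1, the poly(A)-binding protein, lower on DDC in controls (-0.80 ± 0.24, limma adjusted p of 0.0479). Ribosome biogenesis genes stood at 91.3 with 1 of 54 called, at Efl1, a large-subunit maturation factor, higher on DDC in controls (0.84 ± 0.24, limma adjusted p of 0.0382). Mitochondrial ribosomal proteins stood at 92.5 with 2 of 51 called, at Mrpl1 (-0.81 ± 0.21) and Mrps18a (-0.71 ± 0.20), both lower on DDC in controls. Regulators of these genes, such as Myc, Mtor and Larp1, stood at 82.4 with 0 of 36 called. The housekeeping list had 1 of 50 called, at Snrpd3, higher on DDC in controls (0.58 ± 0.17).

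Members with and without the promoter features overlapped in rank. The median percentile was 79.7 with a pyrimidine run at the start and 87.3 without, 80.4 with TCTCGCGA and 86.8 without, and 87.3 with CCGGAAG and 82.5 without, each inside the interquartile range of the set. Among gene-end regions of other protein-coding genes, the median of the members over the 12 libraries was followed most closely at Tpd52 (Pearson's r of 0.978), at the region between Nhej1 and Slc23a3 (0.967) and at Fam120a (0.957). These are descriptions over libraries that share their depth and list length.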

How the data were processed

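ATAC-seq was done on hepatocytes of 12 mice, 3 in each group, with 1 deposited peak list per library, so the authors did not pool replicates. Tools listed in the submitters' processing notes are MACS2, Bowtie2, fastp, Picard, SAMtools, deepTools and bedtools, with the build mm10. Their versions and settings, and whether reads were shifted to the transposase cut, are not given in the sources used. In the deposited lists the fold enrichment is a ratio over the caller's background, and the −log10 p and −log10 q values and the score are the authors' own; the deposited summit positions were used for distances. The lists hold no read counts, so depth is unknown.

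Peaks on named chromosomes were used, several summits of 1 peak were merged, and the strongest 137034 peaks of each library were joined where they overlapped by at least 1 bp. This gave 292665 regions, of which 138538 were in at least 3 lists. Ranks by fold enrichment were mapped to the mean log2 fold enrichment of the 12 lists, and absence took the lowest value, log2 1.27. Only differences relative to other regions of a library can be seen.

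Groups were compared with limma 3.58.1 in R 4.3.3 (4 group means, trend and robust settings, two-sided), tested on simulated data. The members and lists were chosen with earlier results of these data known. Members named with values were the 5 highest and 5 lowest, the 3 largest differences in each comparison, members without a promoter region, and 8 with roles beside translation; likeness was Pearson's r over 12 libraries. Alternatives covered list length, ranking, scaling, overlap, filters, distance, samples and a replicate block. Python 3.11.15, pandas 2.3.3, numpy 2.4.6 and matplotlib 3.10.9 were used.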

Additional observations from a re-analysis of the deposited data

How the results depend on the processing

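The count of 0 called member regions held in 126 of 134 recomputed counts over the 5 comparisons, and the count of 0 called widths in all 15. The exceptions were all in the diet comparisons. In controls 1 region was called with all deposited peaks (Rpl13), 1 at a −log10 q of at least 5 (a side region of Rps15a), 1 at 50% reciprocal overlap (Rps7), 1 with only the groups compared (a side region of Rps16), 2 with the deposited log2 fold enrichment and 2 when centred on housekeeping gene ends. In deleted mice 4 were called with the deposited log2 fold enrichment, all lower, and 16 when centred on housekeeping gene ends, all higher and 9 of them promoter regions. The count of all tested regions called also moved with the setting. It ran from 3550 to 14411 for diet in controls and from 1183 to 43318 for diet in deleted mice. Centring on the mean of the housekeeping promoter regions, chosen after seeing the data, called 0. The cause was not tested. Leaving out any 1 library gave 0 to 0 called members in each comparison, and so did leaving out both deleted standard-diet libraries that stand apart. Equal replicate numbers did not pair the libraries, as deviations of same-numbered libraries correlated at -0.024 to 0.057, and a replicate block also called 0 member regions. Differences changed sign for Rps10 (0.19), Rps24 in deleted mice (0.24) and Rpl3 in the difference of diet effects (0.83) at 50% reciprocal overlap, and for Rpl17 in the difference of diet effects (-0.25) with all deposited peaks.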
